A study of Mus musculus with 32 samples.

Results

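The mouse genes described here are those named Zfp followed by a number, the systematic name for zinc finger protein genes. A gene was taken as a member when it was annotated as protein coding, matched that name and had a mean normalized read count of at least 20 over the 8 libraries of an organ, in at least 1 of 4 deposited organ tables. Of 143 protein-coding genes of that name in the tables, 132 met the rule, out of 10055 genes listed in any table and 394 such genes annotated in the mouse genome. The other 11 were under the minimum in every table that listed them. The members gave 190 gene-organ values: 79 from liver, 79 from ileum, 23 from jejunum and 9 from duodenum. Just inside the minimum were Zfp382 in ileum, with a mean of 20.3, and Zfp940 in liver, with 21.8, and just outside were Zfp618 in liver, with 17.1, and Zfp105 in jejunum, with 14.5.

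Male mice lacking Khk (Khk KO) were compared with wild-type (WT) males by RNA sequencing of polyA RNA from whole liver, duodenum, jejunum and ileum, with 4 libraries per genotype and organ and 32 in all. Khk encodes ketohexokinase, which phosphorylates fructose, and the study asked how fructose metabolism through this enzyme bears on iron handling. Both genotypes are otherwise described alike: strain, age, diet and the way the gene was deleted are not given in the sources used here. Nothing states that the 4 libraries of a group are separate mice or that the organs come from the same mice, so p-values measure the spread between these libraries.

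The tables list a gene only where the authors' own test gave it an unadjusted p-value under 0.05, which selects for a difference between genotypes before any value here was computed. Every member listed had therefore passed that filter, and a Zfp gene that is absent from a table has no value here. The share of members that differ is set by this selection, so direction, size and position among other listed genes are described instead. In whole organs, fewer cells of a type and less RNA per cell cannot be told apart.

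A C2H2 zinc finger is a small fold held together by a zinc ion, and a protein with an array of such fingers can read a stretch of DNA, each finger contacting a few bases. In many of these proteins a KRAB box near the amino terminus binds TRIM28, a scaffold that brings in the histone methyltransferase SETDB1 and heterochromatin proteins, and the bound DNA, often a transposable element, is silenced. KRAB zinc finger genes have multiplied by tandem duplication and lie in clusters of similar copies. In translations of the longest annotated coding sequence, 57 members matched a KRAB pattern and 4 matched a SCAN box, a dimerization module, without a KRAB box. Another 53 had 5 or more fingers and neither box, and 14 had 1 to 4 fingers. No C2H2 finger was matched in Zfp36l2, Zfp503, Zfp839 and Zfp972. Of 21901 mouse proteins searched in the same way, 1.3% matched the KRAB pattern.

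The 2 largest rises past the threshold in liver and in ileum belong to genes in 2 genomic clusters, on chromosomes 17 and 2. The promoters of these clusters' members are shown because copies within a cluster resemble one another. Each run covers 250 bases before to 50 bases after the annotated start in the mouse build GRCm38.p6, from RefSeq, written 5′ to 3′ on the gene's own strand. Capitals mark a match to 1 of 4 motifs searched on both strands, those of ETS family factors, of YY1, the E-box and the TATA box. The capitals in Zfp871 are an E-box and those in Zfp972 an ETS motif. The chromosome 17 promoters are Zfp871 at chr17:32788238-32788537 on the minus strand, Zfp955a at chr17:33255096-33255395 on the minus strand and Zfp955b at chr17:33289294-33289593 on the plus strand. The chromosome 2 promoters are Zfp970 at chr2:177464492-177464791 on the plus strand, Zfp971 at chr2:178023034-178023333 on the plus strand and Zfp972 at chr2:177925601-177925900 on the minus strand.
Zfp871: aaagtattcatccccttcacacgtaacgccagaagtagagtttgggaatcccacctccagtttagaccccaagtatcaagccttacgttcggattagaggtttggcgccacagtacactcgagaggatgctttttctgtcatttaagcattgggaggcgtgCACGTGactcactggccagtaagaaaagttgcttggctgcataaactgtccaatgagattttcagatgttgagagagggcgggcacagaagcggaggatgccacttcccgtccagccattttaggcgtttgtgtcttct
Zfp955a: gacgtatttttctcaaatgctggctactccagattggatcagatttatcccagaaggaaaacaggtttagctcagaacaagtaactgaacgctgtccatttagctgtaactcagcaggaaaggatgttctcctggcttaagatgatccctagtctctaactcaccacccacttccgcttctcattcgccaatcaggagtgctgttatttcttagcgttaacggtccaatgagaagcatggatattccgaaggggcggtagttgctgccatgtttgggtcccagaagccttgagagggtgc
Zfp955b: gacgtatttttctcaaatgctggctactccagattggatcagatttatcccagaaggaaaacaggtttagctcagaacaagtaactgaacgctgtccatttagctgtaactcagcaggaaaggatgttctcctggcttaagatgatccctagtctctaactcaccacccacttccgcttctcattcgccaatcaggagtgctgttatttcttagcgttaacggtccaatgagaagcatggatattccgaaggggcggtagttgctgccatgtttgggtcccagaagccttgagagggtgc
Zfp970: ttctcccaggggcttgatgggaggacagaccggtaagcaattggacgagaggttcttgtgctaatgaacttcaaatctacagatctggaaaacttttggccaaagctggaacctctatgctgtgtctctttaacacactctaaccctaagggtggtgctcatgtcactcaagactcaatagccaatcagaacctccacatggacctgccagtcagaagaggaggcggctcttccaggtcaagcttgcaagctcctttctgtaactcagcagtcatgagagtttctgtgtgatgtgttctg
Zfp971: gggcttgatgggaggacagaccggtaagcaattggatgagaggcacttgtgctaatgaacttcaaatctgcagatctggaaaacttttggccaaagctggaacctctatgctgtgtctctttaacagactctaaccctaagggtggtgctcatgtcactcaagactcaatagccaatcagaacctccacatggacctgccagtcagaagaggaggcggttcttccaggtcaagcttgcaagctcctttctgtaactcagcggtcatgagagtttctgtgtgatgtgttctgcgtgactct
Zfp972: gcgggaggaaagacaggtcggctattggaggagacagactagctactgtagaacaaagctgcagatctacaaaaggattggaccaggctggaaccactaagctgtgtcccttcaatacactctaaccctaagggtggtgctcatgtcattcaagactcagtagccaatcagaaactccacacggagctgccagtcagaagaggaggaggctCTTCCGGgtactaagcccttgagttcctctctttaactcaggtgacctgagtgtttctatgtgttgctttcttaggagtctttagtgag

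The promoters of Zfp955a and Zfp955b were identical over all 300 bases. Those of Zfp970 and Zfp971 matched at 91.9% of aligned positions, and Zfp972 matched them at 71.9% and 75.3%. Zfp871 matched the other 5 at 48.2% to 51.9%. RefSeq promoters were matched by symbol for 107 of the 132 members. The ETS motif, searched as CCGGAAG, was found in 17.8% of these and in 9.1% of the promoters of 26918 other genes. The YY1 motif, searched as AAGATGG, was found in 9.3% of members against 6.5% of other genes. The TATA motif, searched as TATAAA, was found in 4.7% of members against 14.2%. The E-box, searched as CACGTG, was found in 9.3% of members against 7.2%, in 8 of 50 KRAB members and in 2 of 57 others. The letters of no motif searched contain those of another. The median number of CpG dinucleotides per promoter was 16 for members, with 11 in KRAB members and 22 in the others, against 7 for other genes. These are matches of letters in a fixed window and say nothing about binding. Members and other genes are also unlike sets here. The others are all remaining RefSeq symbols, not limited to listed or protein-coding genes. For members the start nearest the deposited gene start was used, and for the others the first start listed.

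As a check of the labels, Khk itself was lower in every Khk KO library than in every WT library of all 4 organs, with mean normalized counts at 11.1% of WT for liver, 4.59% for duodenum, 9.25% for jejunum and 6.65% for ileum (exact two-sided permutation p = 0.0286 in each, the smallest that 4 against 4 allows). Library totals implied by the deposited FPKM values ran from 9821512 to 29475414 reads, of which 1517 to 39381 fell on members. Levels of the listed genes depended on gene length differently in the genotypes: in every organ the slope was higher in each Khk KO library than in each WT library. These slopes rest on genes listed because their genotypes differed, a selection that favours such a separation. Over the other listed genes, the log2 level rose by 0.231 to 0.281 per doubling of gene length in liver Khk KO libraries, relative to the mean of the 8 libraries. It moved by 0.029 in liver WT replicate 1 and by -0.512 to -0.254 in the other 3 liver WT libraries. The matching slopes in ileum were 0.175 to 0.21 in Khk KO and -0.363 to -0.065 in WT. Liver WT replicate 1 thus stood apart from the other WT libraries, and values without it are given for some members. Of 30 liver members examined one by one, leaving it out moved the log2 fold change further from 0 in 27 and closer to 0 in 3, and none changed sign. Signs seldom turn in genes listed because their genotypes differed. Cell type markers moved with genotype as well. In liver, all 5 listed macrophage and Kupffer cell markers were lower in Khk KO, with summed counts of 2937 to 4056 against 3832 to 11178. All 5 erythroid markers were lower as well, 2967 to 3515 against 4584 to 10959, and all 3 listed endothelial markers were higher, 2364 to 2495 against 681 to 1857. In ileum, all 4 listed enterocyte, 4 goblet cell and 3 Paneth cell markers were lower and both listed stem and cycling cell markers were higher. These values moved when the trend on gene length was removed, a step described below. In liver, the log2 fold change was then 0.35 for Stab2, 0.05 for Vwf, 0.03 for Kdr and 0.21 for Vsig4. Of these liver markers only Hbb-bt then passed edgeR's test, at -1.13. In ileum, Mki67 stood at 0.0022, Top2a at -0.06, Tff3 at 0.04 and Itln1 at 0.13, and only Muc2 passed, at -0.77. Hepatocyte markers were abundant in liver, with 9 of 12 in the table and sums of 526100 to 656590, and enterocyte markers were present in each intestinal table. The part of length, cell type markers and single libraries in the results below was not tested unless a value is given.

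In liver, 70 of the 79 members were higher in Khk KO and 9 were lower, a share of 88.6% higher (95% exact binomial interval 79.5 to 94.7%, which covers counting only). Their median log2 fold change was 0.755, against -0.305 for 5062 other protein-coding genes of the table with the same minimum, of which 48.4% were higher. By edgeR's quasi-likelihood test with Benjamini-Hochberg adjustment over all genes the authors had tested, 30 members rose and 3 fell in liver. That is 41.8% of members, beside 44.0% of all genes in the liver table, of which 20.9% rose and 23.1% fell. In the authors' deposited table, 48 liver members were higher and 5 lower at an adjusted p under 0.05, 67.1% beside 68.5% of the table, of which 35.8% were higher. Both shares of called members lie near the background, and the difference from other genes was in direction. Genotypes did not overlap in 49 members, 62.0% beside 65.0% of the table. The edgeR calls depended on single libraries. Without WT replicate 1, 58 members were called, and without WT replicates 2, 3 and 4 in turn, 2, 30 and 1. Leaving out Khk KO replicates 1 to 4 in turn gave 1, 0, 6 and 1, and of the 33 called members none passed in all 8 of these fits. DESeq2's Wald test called 52 liver members, beside 68.6% of the table. The edgeR calls of the whole liver table moved as well, from 2807 genes to 87, 19, 537 and 118 without Khk KO replicates 1 to 4. Without WT replicates 1 to 4 in turn they were 4893, 328, 2233 and 298. The count of 70 higher members was the same whichever library was left out. Every member had been listed for a difference over all 8 libraries, so a sign seldom turns without 1. The unchanged count is therefore no check of direction.

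In ileum, 70 of 79 members were higher and 9 lower, with a median log2 fold change of 0.594 against -0.311 for 4234 other protein-coding genes, of which 47.5% were higher. The edgeR test called 27 members higher and 2 lower, 36.7% beside 30.6% of the table, where 20.1% rose and 10.4% fell. In the authors' deposited ileum table, 39 members were higher and 3 lower past the threshold, beside 48.3% of the table past it and 27.1% higher. Genotypes did not overlap in 49 members, 62.0% beside 66.8% of the table. Leaving out Khk KO replicates 1 to 4 in turn gave 9, 7, 7 and 10 called members, and leaving out WT replicates 1 to 4 gave 39, 7, 18 and 43. The whole ileum table moved as well, from 1585 called genes to 492, 452, 521 and 482 without the Khk KO replicates. Without the WT replicates it gave 2579, 505, 869 and 2284. The members called in all 8 of these fits were 5: Zfp26, Zfp292, Zfp507, Zfp871 and Zfp971. The count of higher members was 70 in each, which the selection of listed genes favours. DESeq2's Wald test called 54 ileum members, beside 65.4% of the table.

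Few members were listed in the other organs. In duodenum, 7 of 9 were higher, against 38.9% of other protein-coding genes, with a median log2 fold change of 0.443, and 5 did not overlap between genotypes, beside 45.9% of the table. In jejunum, 18 of 23 were higher, against 48.4%, with a median of 0.589, and 13 did not overlap, beside 56.0% of the table. No member passed the threshold in either organ by edgeR or in the authors' deposited tables, although all 9 and all 23 had an unadjusted p under 0.05 there by the authors' selection. DESeq2's Wald test called 0 of 9 in duodenum and 1 of 23 in jejunum, beside 1.91% and 10.9% of all genes in these tables. Of the same genes, edgeR called 0.0638% in duodenum and 0.0414% in jejunum. The authors' tables called 2.23% and 3.11%.

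Measured per length as FPKM, members were expressed at low levels. The median member stood at 3.26 FPKM in Khk KO and 2.14 in WT liver, at 1.93 and 1.42 in duodenum, at 1.31 and 0.794 in jejunum and at 2.21 and 1.45 in ileum. Only members listed in an organ enter its medians, so the organs hold different genes. Summed over members, liver Khk KO libraries held 29411 to 33293 normalized counts, WT replicate 1 held 25671 and the other WT libraries 15559 to 18009. Liver groups therefore did not overlap in this sum, and WT replicate 1 lay between the Khk KO libraries and the other WT libraries. In jejunum the sums were 9098 to 10873 in Khk KO and 6433 to 7877 in WT, and in ileum 30191 to 32798 and 20007 to 23273, also without overlap. In duodenum, 1759 to 2121 in Khk KO overlapped 1562 to 1960 in WT. Members were listed for a difference between genotypes and most were higher in Khk KO, which favours separate sums. The separation is therefore no check of direction.

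**Figure D1:**
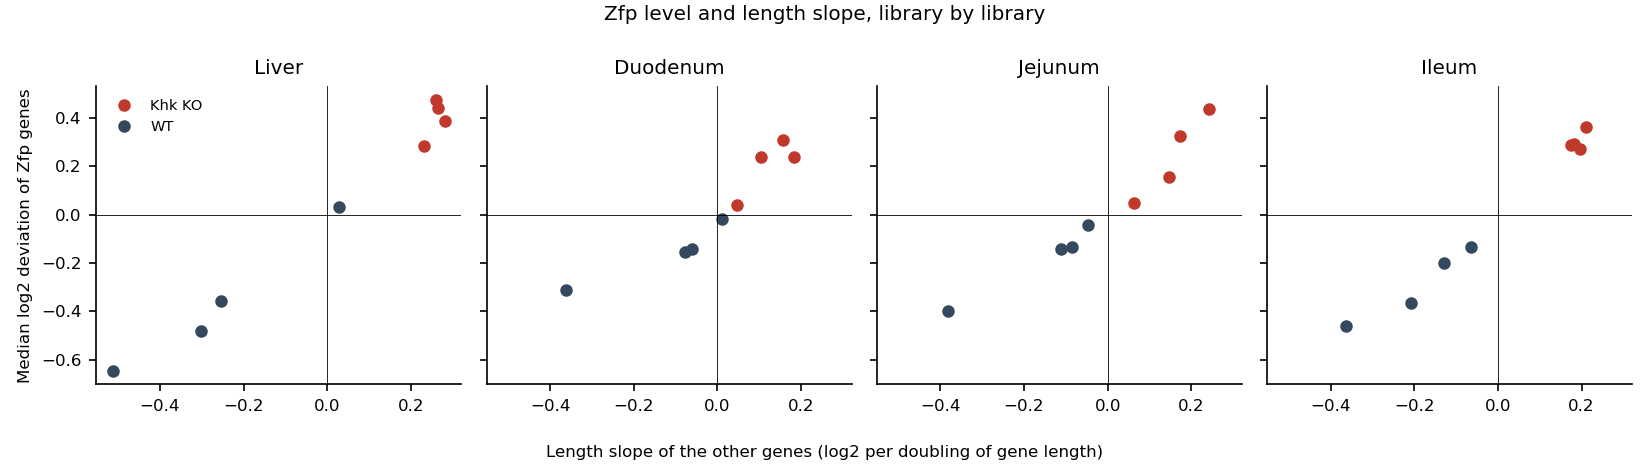
Median log2 deviation of the Zfp members in each library from the mean of the 8 libraries of its organ (vertical axis) against the slope of the other listed genes on gene length in the same library (horizontal axis, log2 per doubling). Each point is 1 library, and every Khk KO library has a higher slope than every WT library of its organ. The selection of listed genes favours that separation. Liver WT replicate 1, at a slope of 0.029 and a member median of 0.032, lies between the 2 genotypes.

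Because gene length moved with genotype, the members were set beside other protein-coding genes in the same length range. Zfp genes are long, with a median gene length of 6090 bases in liver against 4632 for the other genes. Among genes over 8 kb, all 25 liver members were higher, as were 96.1% of the others, and their median log2 fold changes were 0.894 and 0.816. The same range in ileum gave 22 of 22 members and 96.4% of the others, with medians of 0.616 and 0.607. Over 8 kb, members and other genes thus had similar shares and medians. At 6 to 8 kb, 17 of 17 liver members were higher against 83.1% of the others, with medians of 0.768 and 0.591, and 16 of 16 ileum members against 81.7%, with medians of 0.545 and 0.478. At 4 to 6 kb, 88.9% of 18 liver members were higher against 55.5% of the others, and 86.4% of 22 ileum members against 54.1%.

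Shorter members stood apart from genes of their length. At 3 to 4 kb, all 6 liver and all 3 ileum members were higher, against 21.7% and 17.4% of the others. Under 3 kb, 6 of 13 liver members were higher, 46.2% against 3.9% of 1702 other protein-coding genes. In ileum 10 of 16 short members were higher, 62.5% against 4.2% of 1470. At 3 kb and above the shares were 97.0% of 66 members against 71.0% in liver and 95.2% of 63 against 70.5% in ileum. The split at 3 kb was made with values in view, and no test was run on it. The other genes were matched on length range and minimum count only, not on expression level or GC content.

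**Figure D2:**
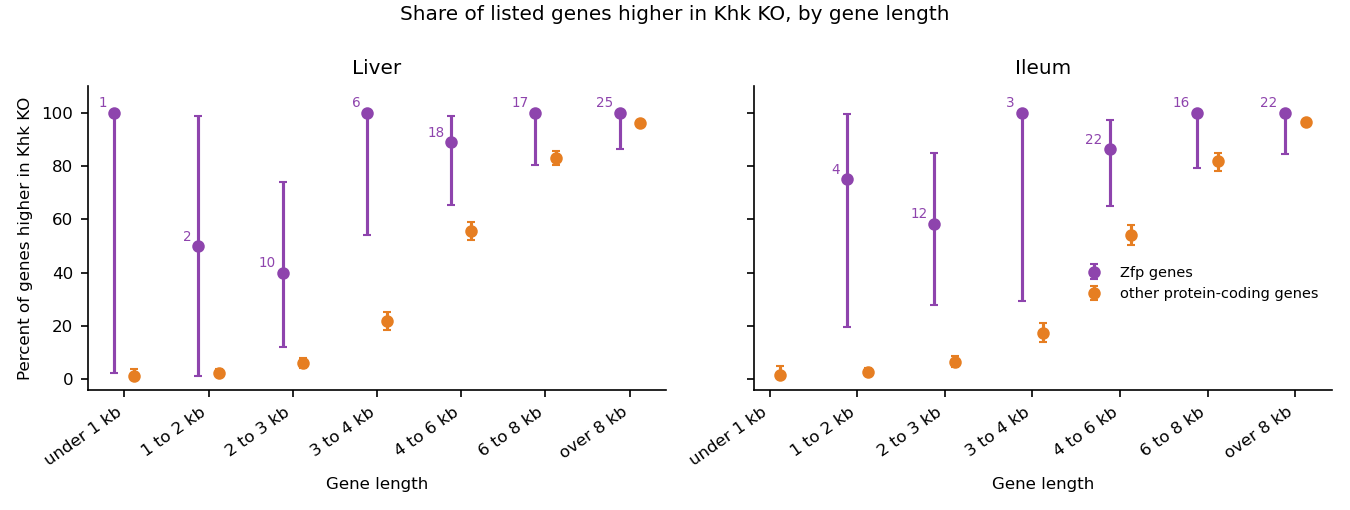
Percent of listed genes higher in Khk KO (vertical axis, 0 to 100) in ranges of gene length (horizontal axis), for Zfp members and for other protein-coding genes with the same minimum count, in liver and ileum. Bars are 95% exact binomial intervals and the small numbers count members. In the 2 to 3 kb range 4 of 10 liver members and 58.3% of 12 ileum members were higher, against 5.9% and 6.5% of the others, and above 8 kb both sets are near 100%.

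When a smooth trend of each library on gene length, estimated over the listed genes, was removed before the same edgeR test, 57 of 79 liver members (72.2%) were higher, with a median of 0.29, against 47.2% of the other genes. In ileum, 61 of 79 (77.2%) were higher, with a median of 0.285, against 45.6%. The count of called members dropped to 11 in liver, 10 of them higher, and to 13 in ileum, 11 of them higher, beside 12.3% and 9.18% of the tables, 6.21% and 4.47% higher. Removing a trend on GC content together with length, an alternative added after the data were seen, left 70.9% higher in liver and 69.6% in ileum, with 11 and 6 called, beside 12.8% and 7.11% of the tables. The GC trend alone left 18 and 10 called, beside 37.9% and 18.0%. Library slopes on GC content also separated genotypes in all 4 organs, which the selection of listed genes favours. Per 10% GC they ran in liver from -0.212 to -0.17 in Khk KO and from -0.01 to 0.316 in WT, and in ileum from -0.318 to -0.253 and from 0.151 to 0.415. In duodenum they ran from -0.087 to -0.061 in Khk KO and from -0.051 to 0.292 in WT, and in jejunum from -0.182 to -0.032 and from 0.005 to 0.241. After each of these corrections most members were above 0 in both organs, with medians closer to 0.

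**Figure D3:**
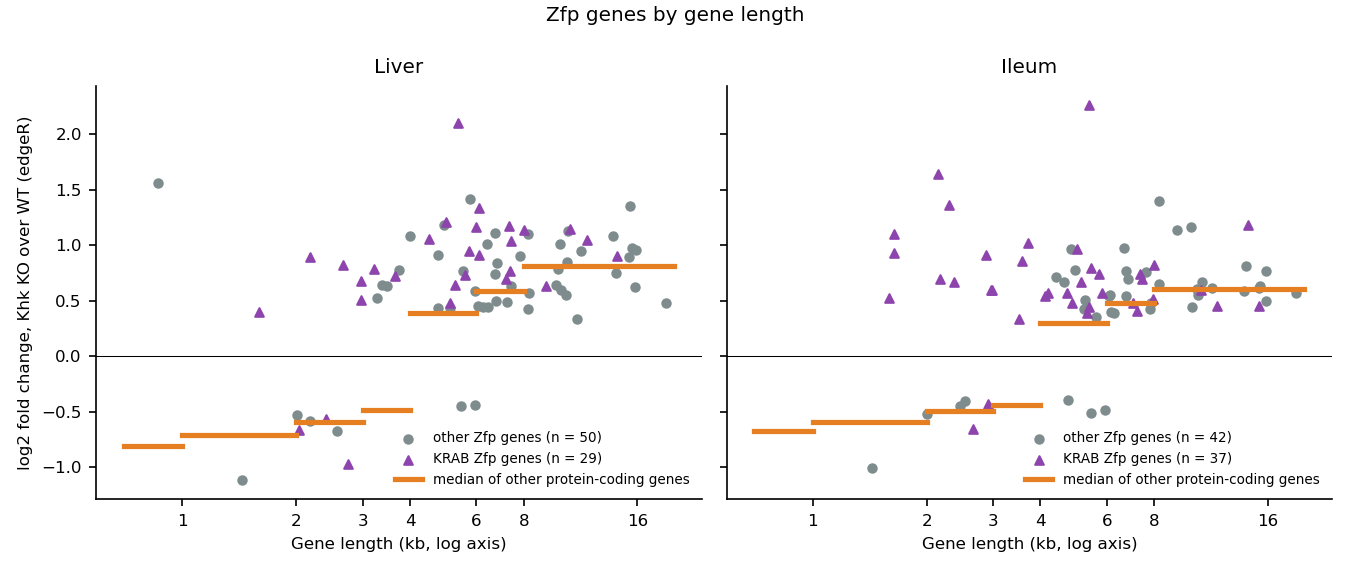
Log2 ratio of Khk KO to WT fitted by edgeR (vertical axis) against gene length in kb (horizontal log axis) in liver and ileum, with triangles for Zfp members with a KRAB box, circles for the other members and orange lines at the median of other protein-coding genes in each length range. The orange lines climb with length, and most KRAB members under 3 kb, 5 of 8 in liver and 10 of 12 in ileum, lie above 0 where the lines lie below it.

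The members with a KRAB box made up most of the short ones that were higher. Under 3 kb, 5 of 8 KRAB members were higher in liver and 10 of 12 in ileum. Of short members without a KRAB box, 1 of 5 was higher in liver, Zfp972, and 0 of 4 in ileum. Both KRAB counts were the same whichever library was left out, which the selection of listed genes favours. After removal of the GC trend alone, 5 of 8 and 9 of 12 short KRAB members were higher, and 2 of 5 and 2 of 4 of the other short members. When only genes under 3 kb in both the deposited length and the longest transcript annotated in GENCODE M21 were kept, 5 of 8 and 8 of 10 KRAB members were higher. With the length trend removed, the median log2 fold change was 0.548 for 29 KRAB members and 0.124 for 50 others in liver, and 0.555 for 37 KRAB members and 0.095 for 42 others in ileum. With length and GC trends removed, the liver medians were 0.517 for KRAB members and 0.132 for others, and the ileum medians 0.387 and 0.084. The order depended on the correction: with the GC trend alone removed, KRAB members had the lower median in both organs, 0.461 against 0.608 in liver and 0.156 against 0.233 in ileum. Uncorrected, KRAB members had a median of 0.822 and others 0.644 in liver, and in ileum the medians were 0.601 and 0.577. Without any correction, edgeR called 9 of 29 KRAB members against 24 of 50 others in liver and 9 of 37 against 20 of 42 in ileum. These counts stand beside 44.0% of the liver table and 30.6% of the ileum table. KRAB members in liver were also shorter, with a median gene length of 5376 bases against 6738.5 for the others. Whether KRAB and other members differ was not tested.

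Zfp871, a KRAB gene with 15 fingers on chromosome 17 (chr17:32771236-32788287, minus strand), had the largest rise among members in both liver and ileum. Its normalized counts in liver were 1295, 998, 892 and 953 in Khk KO and 599, 104, 87 and 177 in WT. Every Khk KO library was above every WT library, and WT replicate 1 was the highest of the WT libraries. The log2 fold change in liver was 2.11 ± 0.51 (SE), with an edgeR adjusted p of 0.0241 and 0.00857 in the authors' deposited table. Without WT replicate 1 it was 3.08. In ileum the counts were 421, 302, 554 and 247 in Khk KO and 70.9, 63.8, 98.4 and 82.8 in WT, again with no overlap. Here the log2 fold change was 2.27 ± 0.27 (edgeR adjusted p = 0.00336), and the call held whichever library was left out. In jejunum the counts were 289, 253, 285 and 451 in Khk KO and 53.6, 190.2, 157 and 199 in WT, with a log2 fold change of 1.09 ± 0.37 that did not pass (edgeR adjusted p = 0.252). Per length the gene stood at 16.3 ± 2.75 FPKM (SD) in Khk KO and 3.82 ± 3.76 in WT liver. Removing the length trend gave 1.94 for liver and 2.10 for ileum, both still past the edgeR threshold (adjusted p = 0.0374 and 0.00275). The deposited length of Zfp871 is 5376 bases, while its longest GENCODE M21 transcript has 10851.

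Zfp955a and Zfp955b, the pair with identical promoters, were listed in ileum. Zfp955b rose: its counts were 78.2, 61.2, 73.2 and 73.2 in Khk KO and 19.9, 32.3, 40.4 and 39.3 in WT, without overlap, and the log2 fold change was 1.11 ± 0.28 (edgeR adjusted p = 0.0369). Zfp955a had counts of 71.3, 50.4, 61.4 and 73.2 in Khk KO and 14.9, 33.2, 40.4 and 44.5 in WT and a log2 fold change of 0.94 ± 0.34 (edgeR adjusted p = 0.0956). The copies share sequence, so reads could have been split between them or lost: 26.5% and 28.4% of their transcript 100-base windows occur in other genes. Their levels are uncertain for that reason, as are those of the chromosome 2 group, at 19.4% for Zfp970, 14.2% for Zfp971 and 18% for Zfp972.

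The chromosome 2 genes are short and went against the trend for short genes. Zfp971 (chr2:178023284-178034022, 2145 bases, 12 fingers) had 121, 94.6, 102 and 104 counts in Khk KO ileum and 42.3, 37.7, 26.9 and 27.9 in WT. All 4 Khk KO libraries lay above all WT libraries, with a log2 fold change of 1.64 ± 0.25 (edgeR adjusted p = 0.00684), called whichever library was left out. Without the length trend it was 2.11 (edgeR adjusted p = 0.00192). Zfp970 (chr2:177464733-177478129, 2172 bases, 14 fingers) had 916, 1003, 646 and 1114 counts in Khk KO liver and 440.0, 388, 635 and 519 in WT. Its groups were separate, and the log2 fold change was 0.89 ± 0.21 (edgeR adjusted p = 0.0213). In ileum, Zfp970 counts were 85.9, 81.1, 109.8 and 109 in Khk KO and 48.5, 72.8, 68.4 and 46.6 in WT, with a log2 fold change of 0.70 ± 0.25 (edgeR adjusted p = 0.0878). That difference did not pass the threshold. Zfp972, the shortest of the 3 at 864 bases, had 48.9, 39.2, 21.4 and 56.3 counts in Khk KO liver and 12, 8.66, 14.4 and 20.9 in WT. Its lowest Khk KO library and highest WT library were close, and the log2 fold change was 1.56 ± 0.41 (edgeR adjusted p = 0.0312).

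**Figure D4:**
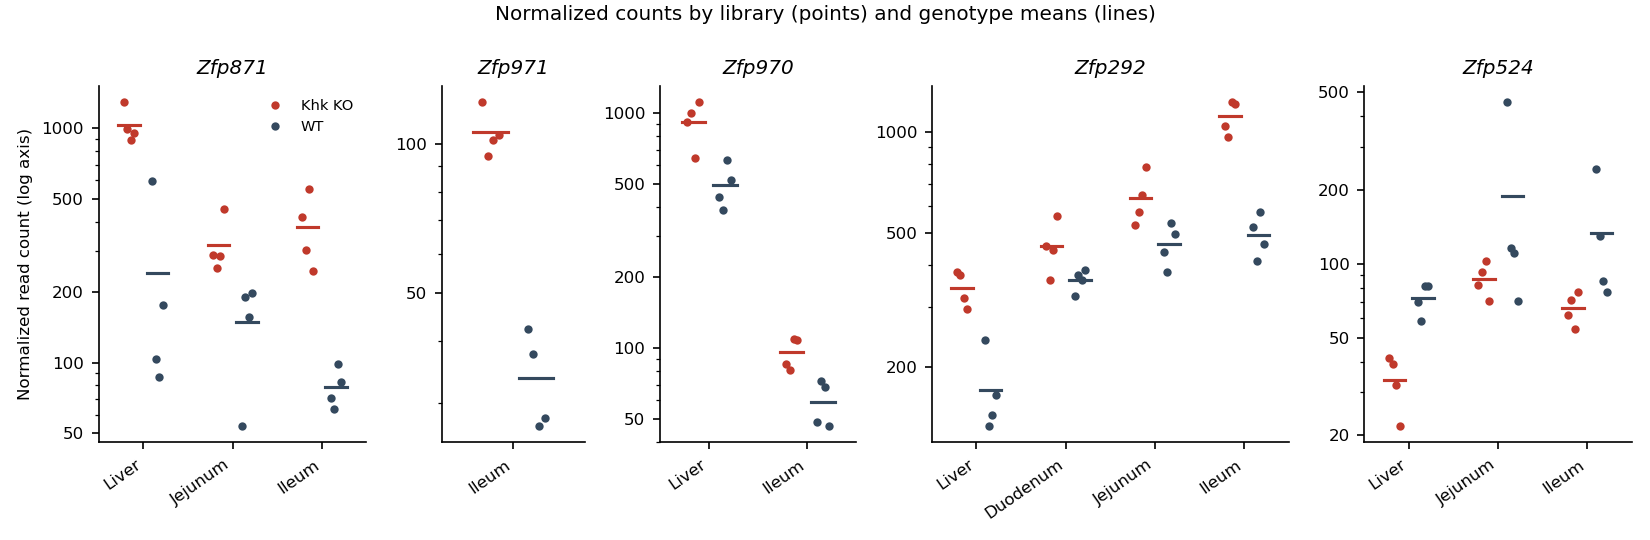
Normalized read counts (vertical log axes) of Zfp871, Zfp971, Zfp970, Zfp292 and Zfp524 in every library of the organs whose tables list them, as points, with lines at the genotype means. Khk KO and WT libraries of Zfp871 do not overlap in any of the 3 organs shown, and 1 WT jejunum library of Zfp524 stands at 455.5.

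Further KRAB members have known roles in silencing. Zfp809, which recruits TRIM28 to retroviral DNA, had 739.5, 761, 521 and 562 counts in Khk KO liver and 371, 341, 594 and 509 in WT. These overlapped, and the log2 fold change of 0.51 ± 0.21 did not pass (edgeR adjusted p = 0.128), but with the length trend removed it was 0.94 and passed (edgeR adjusted p = 0.018). Zfp445, which keeps parental imprints silenced, was the most abundant member in liver at 42 ± 5.29 FPKM (SD) in Khk KO and 20.7 ± 9.94 in WT. Its liver counts were 4382, 3524, 3426 and 3372 in Khk KO and 3099.6, 1459.6, 1096 and 1503 in WT, with a log2 fold change of 1.04 ± 0.27 (edgeR adjusted p = 0.0303). In ileum Zfp445 also rose, by 0.70 ± 0.17 (edgeR adjusted p = 0.0329), while its jejunum difference was 0.31 ± 0.12 (edgeR adjusted p = 0.26). After removal of the length trend it passed in neither liver, at 0.53, nor ileum, at 0.29. Zfp568, which represses a placental Igf2 transcript, had log2 fold changes of 0.77 ± 0.30 in liver and 0.74 ± 0.24 in ileum. Neither passed edgeR's test (adjusted p = 0.102 and 0.0717), and both passed in the authors' deposited table (0.0424 and 0.035).

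Zfp869 and Zfp758 are short KRAB genes listed in both organs. Zfp869, with 1590 bases, had 201, 244, 249.9 and 258 counts in Khk KO liver and 176, 168, 204 and 176 in WT, which overlapped. In ileum it had 255, 249.5, 299 and 319.9 in Khk KO and 164, 181, 204 and 229.8 in WT, and the groups did not overlap there. Its log2 fold changes of 0.40 ± 0.16 and 0.53 ± 0.16 did not pass edgeR's test (adjusted p = 0.12 and 0.0604). After removal of the length trend they were 1.03 and 1.00 and passed (edgeR adjusted p = 0.0108 and 0.0366). Zfp758, with 2974 bases, had log2 fold changes of 0.68 ± 0.23 in liver and 0.60 ± 0.20 in ileum, and with the GC trend removed the ileum value was -0.05, so its direction there depended on that choice. Not every short KRAB gene was higher: Zfp1 (-0.67), Zfp954 (-0.57) and Zfp688 (-0.97) had log2 fold changes below 0 in liver, as did Zfp13 (-0.65) and Zfp984 (-0.43) in ileum, none past edgeR's threshold. Zfp809, Zfp869 and the short genes below 0 were named after their values were seen.

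Among members without a KRAB box, Zfp292 (chr4:34803113-34882960, 14 fingers, 9986 bases) was the 1 gene listed in all 4 organs. Its counts in ileum were 1043, 966, 1223 and 1208 in Khk KO and 522, 413, 576 and 464 in WT, with a log2 fold change of 1.17 ± 0.14 (edgeR adjusted p = 0.00336). In liver they were 384, 375, 320.1 and 297 in Khk KO and 241, 133, 144 and 165 in WT, with 1.01 ± 0.21 (edgeR adjusted p = 0.0182). It rose in both organs without overlap between genotypes. In jejunum the counts were 529, 578, 649.6 and 787 in Khk KO and 439.9, 381, 534 and 497 in WT, and in duodenum 457, 361, 443 and 563 and 325, 374, 362 and 389. The log2 fold changes there, 0.46 ± 0.16 and 0.33 ± 0.15, did not pass (edgeR adjusted p = 0.256 and 0.838). After removal of the length trend Zfp292 stood at 0.62 in ileum (edgeR adjusted p = 0.0174), 0.26 in liver and 0.00 in jejunum. Its ileum difference alone thus passed after that step, and the difference between organs was not tested.

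Zfp281, a factor of the pluripotency network in embryonic stem cells, rose in both liver and ileum. Its liver counts were 717, 710.0, 749.7 and 863 in Khk KO and 549, 288, 226 and 274 in WT, and its ileum counts 255, 258, 257 and 283 and 204, 127, 132 and 155. The log2 fold changes were 1.19 ± 0.25 and 0.77 ± 0.18 (edgeR adjusted p = 0.019 and 0.0263), and with the length trend removed both still passed, at 1.08 and 0.70. Without liver WT replicate 1 the uncorrected liver value was 1.53. Zfp507 rose by 1.11 ± 0.24 in liver and 1.40 ± 0.20 in ileum (edgeR adjusted p = 0.019 and 0.00584). In ileum its counts were 262, 288, 344 and 307 in Khk KO and 77.1, 122, 112 and 142 in WT, without overlap. Its value after the length step was 0.93 in ileum, which passed (edgeR adjusted p = 0.0233), and 0.47 in liver, which did not (edgeR adjusted p = 0.294). Zfp507 shares 26% of its windows with other genes.

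A further group rose in the uncorrected test, in the organs given here, but not once length was accounted for. Zfp106, an RNA-binding protein needed by motor neurons, had 2361, 2368, 2444 and 2291 counts in Khk KO ileum and 1785, 1432, 1698 and 1556 in WT, with a log2 fold change of 0.55 ± 0.11 (edgeR adjusted p = 0.0144). The groups were separate, yet with the length trend removed the value was -0.02. Zfp451, a SUMO ligase, rose by 0.96 ± 0.21 in liver (edgeR adjusted p = 0.0201) and stood at -0.06 after the length step. Zfp26 rose by 0.91 ± 0.21 in liver (edgeR adjusted p = 0.0205) and stood at -0.08 after it. In ileum Zfp704 rose by 0.63 ± 0.14 (edgeR adjusted p = 0.0204) and stood at -0.05. Zfp644 rose by 0.75 ± 0.21 in liver and 0.82 ± 0.17 in ileum (edgeR adjusted p = 0.0347 and 0.02) and stood at -0.17 and 0.16 after the step. After it none of these 5 passed edgeR's threshold in the organs given so far. That does not cover Zfp26 in ileum or Zfp704 in liver, which were among the largest rises there. Their uncorrected log2 fold changes were 1.18 and 1.35, with adjusted p-values of 1.08e-06 and 0.00121 in the authors' deposited tables.

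Other members rose in 1 or both of these organs in the uncorrected test, and most of these rises did not pass with the length trend removed. Zfp976 rose by 1.21 ± 0.24 in liver and 0.96 ± 0.27 in ileum (edgeR adjusted p = 0.0179 and 0.0499). Zfp950 rose in liver by 1.14 ± 0.18 (edgeR adjusted p = 0.0145), with counts of 275, 294, 268 and 293 in Khk KO and 138, 113, 102 and 159 in WT. Zfp369 rose in liver by 1.18 ± 0.25 (edgeR adjusted p = 0.019), with counts of 285, 303, 281 and 255 in Khk KO and 204, 94.1, 92.3 and 108 in WT, of which the 204 of WT replicate 1 was far from the other WT values. Zfp236 rose by 1.13 ± 0.27 in liver and 0.59 ± 0.15 in ileum (edgeR adjusted p = 0.0223 and 0.0392). Zfp318, which B cells need to make IgD, rose in liver by 1.09 ± 0.26 (edgeR adjusted p = 0.0235). In ileum Zfp800 rose by 0.96 ± 0.20 and Zfp597 by 0.98 ± 0.21 (edgeR adjusted p = 0.0175 and 0.0198). Zfp800 had 283, 346, 424 and 404 counts in Khk KO and 189, 143, 167 and 247 in WT, and with the length trend removed it still passed at 0.91 (edgeR adjusted p = 0.0264). Zfp976 also still passed in liver, at 1.08 (edgeR adjusted p = 0.0223), but not in ileum, at 0.87. Liver values that no longer passed were 0.33 for Zfp950, 0.66 for Zfp369, 0.39 for Zfp236 and 0.22 for Zfp318. In ileum Zfp236 at 0.02 and Zfp597 at 0.64 no longer passed. Leaving out WT replicate 1 took the uncorrected liver values to 1.52 for Zfp369, 1.52 for Zfp236 and 1.44 for Zfp318.

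Few members fell. In liver those past edgeR's threshold were Zfp524, Zfp637 and Zfp771. Zfp524 (chr7:5014415-5018488, 1436 bases, 4 fingers), whose human counterpart binds telomeric DNA, had 41.2, 39.2, 32.1 and 21.8 counts in Khk KO liver and 70, 58.4, 80.9 and 81.6 in WT, without overlap. Its log2 fold change was -1.12 ± 0.29 (edgeR adjusted p = 0.0285), while the median of other genes of its length was -0.71. Its value without the length trend, -0.46, did not pass. In jejunum its counts were 82.2, 92.6, 102 and 70.3 in Khk KO and 456, 117, 110.3 and 70.7 in WT, a difference carried by WT replicate 1: leaving that library out took the log2 fold change from -1.11 to -0.19. In ileum it had 62.1, 71.2, 54.3 and 77.1 in Khk KO and 244, 129, 85 and 76.6 in WT, with a log2 fold change of -1.01 ± 0.36 that did not pass (edgeR adjusted p = 0.0902) and was -0.55 without ileum WT replicate 1. Of its 100-base windows 43.6% occur in another annotated gene, so its counts are uncertain. Zfp637 had 149.6, 116, 176 and 164 counts in Khk KO liver and 205, 303, 206 and 249.6 in WT, and its log2 fold change of -0.67 ± 0.20 (edgeR adjusted p = 0.0441) moved to -0.18 with the length trend removed.

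In ileum Zfp787 and Zfp64 fell. Zfp787 had 354, 367, 403 and 405 counts in Khk KO and 519.6, 635, 515 and 507 in WT, with a log2 fold change of -0.51 ± 0.12 (edgeR adjusted p = 0.0276). Zfp64 had 233, 213, 191 and 198 in Khk KO and 282, 281, 324 and 284 in WT, with -0.49 ± 0.13 (edgeR adjusted p = 0.0461). Neither gene overlapped between genotypes, and with the length trend removed both still passed, at -0.69 and -0.73 (edgeR adjusted p = 0.0112 and 0.0145). Zfp444, a SCAN box member, had a log2 fold change of -0.43 ± 0.16 in liver (edgeR adjusted p = 0.0837) and passed only with the length trend removed, at -0.82 (edgeR adjusted p = 0.0235). Its counts were 219, 237, 277 and 263 in Khk KO and 286, 372, 362 and 324 in WT.

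Zfp36l2 binds AU-rich elements and speeds the decay of mRNA rather than binding DNA, and it was listed in jejunum alone. Its counts were 2091, 1596, 2037 and 1581 in Khk KO and 928, 1629, 1348 and 1524 in WT. The groups overlapped, and the log2 fold change of 0.43 ± 0.19 did not pass (edgeR adjusted p = 0.27).

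Most members were listed in 1 organ. Of the 132, 85 were in 1 table, 37 in 2, 9 in 3 and 1 in all 4. Those in 1 table comprised 66 higher and 19 lower in Khk KO, and of those in 2 tables, 35 were higher in both, 1 was lower in both and 1 had opposite directions. Of the 9 in 3 tables, 8 were higher in each and Zfp524 was lower in each. By the authors' deposited tables, 24 members (18.2%) passed the threshold in 2 organs and 47 (35.6%) in 1. Of 7444 other protein-coding genes with the same minimum, 17.9% passed in 2 organs and 44.4% in 1. Liver and ileum shared 38 members, 48.1% of each list, and 37 of them had the same direction. Among the other protein-coding genes of those 2 tables, 2551 were shared, 50.4% of the liver and 60.3% of the ileum list, and 98.8% of those had the same direction. Zfp395 was the exception among members. It had 1182, 1093, 913 and 776 counts in Khk KO liver and 838, 890.5, 455 and 749.7 in WT, and 371, 509, 360.1 and 335 in Khk KO ileum and 420.2, 516, 574 and 553 in WT. Its log2 fold changes of 0.44 ± 0.22 and -0.39 ± 0.16 did not pass (edgeR adjusted p = 0.222 and 0.13). The tables have different genes and no shared libraries, and the difference between organs was not tested. Zfp608, listed in the 3 intestinal organs, had log2 fold changes of 0.66, 0.77 and 0.55, none past edgeR's threshold.

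The members were spread over the genome but crowded on a few chromosomes: 31 lay on chromosome 7, of 92 annotated there, 15 on chromosome 17, of 46, and 11 on chromosome 2, of 28. Runs of at least 3 members with no more than 500 kb between neighbours were taken as clusters. There were 6, holding 31 members. The cluster at chr17:21008903-22456689 held 8 members of 19 annotated, all with a KRAB box: Zfp160, Zfp52, Zfp948, Zfp820, Zfp942, Zfp947, Zfp758 and Zfp946. All 10 of their gene-organ values were higher in Khk KO, with log2 fold changes of 0.33 to 1.02 in the authors' deposited tables and 4 past the authors' threshold. Those were 3 of 4 in liver, 1 of 5 in ileum and 0 of 1 in duodenum, beside 68.5%, 48.3% and 2.23% of the tables. The ileum direction depended on GC content: with that trend removed Zfp160 (-0.19), Zfp758 (-0.05) and Zfp946 (-0.29) lay below 0 there. Zfp160 in liver had 123, 139, 136 and 172 counts in Khk KO and 97.4, 103, 64.3 and 87.3 in WT, with a log2 fold change of 0.70 ± 0.22 (edgeR adjusted p = 0.0506). It did not overlap between genotypes but missed edgeR's threshold.

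A cluster at chr7:29768552-30169750 also held 8 members, of 15 annotated, 6 with a KRAB box: Zfp84, Zfp790, Zfp940, Zfp420, Zfp383, Zfp568, Zfp382 and Zfp146. Its 10 values were all higher, from 0.53 to 1.43 in the authors' deposited tables, 6 past their threshold. Those were 4 of 6 in liver, 2 of 3 in ileum and 0 of 1 in jejunum, shares set by few genes beside the 68.5%, 48.3% and 3.11% of the tables. The cluster at chr17:32771236-33303196 held Zfp871, Zfp955a and Zfp955b, of 8 annotated, and all 5 values were higher, from 0.94 to 2.27. The other protein-coding genes listed in that span in ileum, Cyp4f13 and Cyp4f14, enzymes that hydroxylate fatty acids, were both lower. At chr2:177464733-178034022, the 3 annotated Zfp genes were all members, Zfp970, Zfp972 and Zfp971, and their 4 values were higher, from 0.70 to 1.65. The 1 other protein-coding gene listed in that span, Gm14325 in ileum, was higher as well. In the run at chr13:67312998-67729173, Zfp595, Zfp738 and Zfp65 gave 4 higher values and Zfp459 1 lower, with none past the threshold.

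The cluster at chr7:127244274-127885996 gave values in both directions. Of its 5 members, of 9 annotated, Zfp771, Zfp768 and Zfp688 gave 4 lower values and Zfp629 and Zfp646 2 higher ones. Only Zfp688 has a KRAB box. Zfp771 fell in liver, with 275, 308, 338 and 323 counts in Khk KO and 502, 491, 426 and 375 in WT, and a log2 fold change of -0.53 ± 0.15 (edgeR adjusted p = 0.0407). With the length trend removed it stood at 0.03, close to 0. In ileum the lower values also depended on the correction. Zfp768 turned above 0 with the length or the GC trend removed, and Zfp771 with the GC trend removed. In the same span 5 of 10 other listed protein-coding genes were higher in liver and 1 of 7 in ileum.

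**Figure D5:**
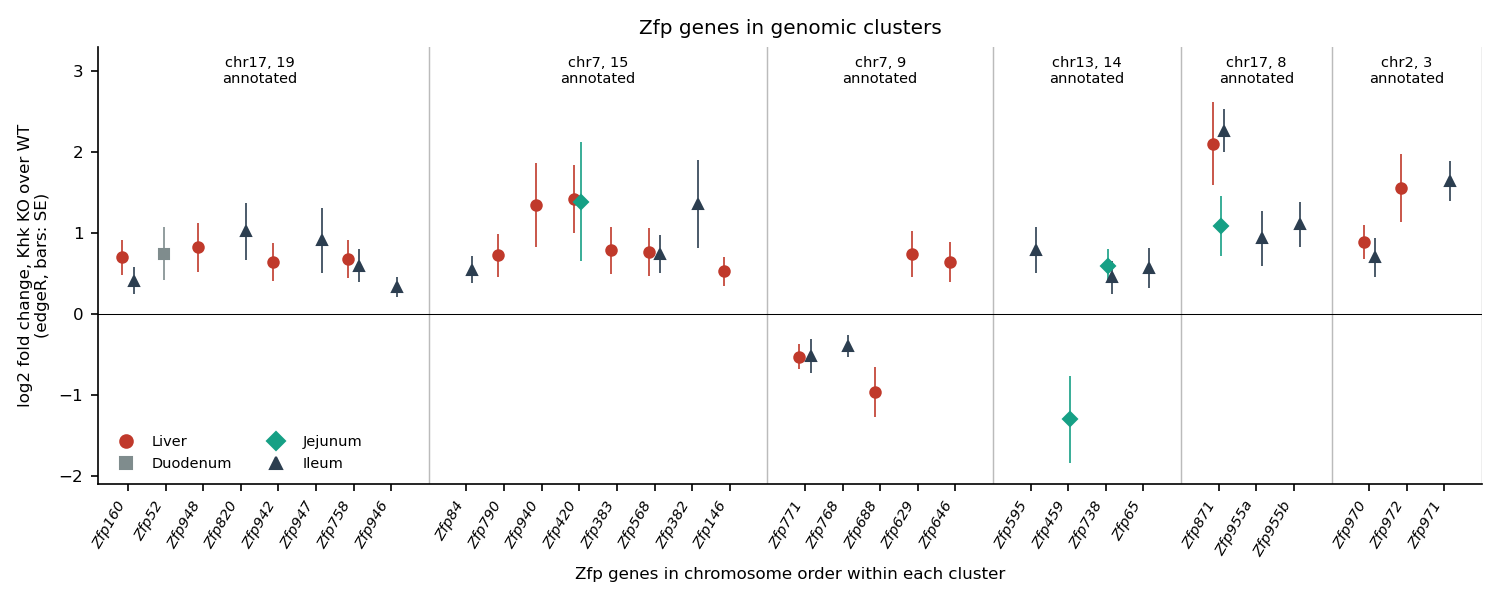
Log2 ratio of Khk KO to WT fitted by edgeR (vertical axis, bars for the SE) of the 31 members in the 6 genomic clusters, in chromosome order within each (horizontal axis), with a symbol for each organ. Every value lies above 0 in 4 of the clusters. The chromosome 13 cluster and the chromosome 7 cluster with 9 annotated genes hold values on both sides.

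Clustered members and the rest had similar shares of higher genes, 15 of 17 against 55 of 62 in liver and 16 of 18 against 54 of 61 in ileum. With the length trend removed, however, the median log2 fold change was 0.936 for clustered members and 0.251 for the rest in liver, and 0.804 and 0.194 in ileum. With length and GC trends removed, the ileum medians were 0.659 and 0.125. Without a length correction that gap was absent in liver and smaller in ileum. Uncorrected medians were 0.739 for clustered members and 0.762 for the rest in liver, and 0.720 and 0.586 in ileum, and removal of the GC trend alone gave 0.461 and 0.532 in liver and 0.217 and 0.203 in ileum. Clustered members share sequence and ancestry, so they are not independent of one another, and the difference was not tested. No member lay within 2 Mb of Khk on chromosome 5, and the nearest was 74.9 Mb away.

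The proteins through which KRAB boxes act were also looked up. The list held 39 symbols of corepressor and heterochromatin genes, among which Fam208a and Tasor name the same gene. In the liver table were 17, and 14 of those were higher in Khk KO, with 7 rises and 2 falls by edgeR's test. In ileum 13 of 18 were higher, with 6 rises and 1 fall. The called shares, 52.9% and 38.9%, stand beside 44.0% and 30.6% of the tables. Without the length trend their median log2 fold changes were 0.083 in liver and 0.032 in ileum, near 0. Setdb1, the histone methyltransferase of the pathway, had 528 ± 48.3 (SD) counts in Khk KO liver and 388 ± 47.6 in WT, with a log2 fold change of 0.45 ± 0.15 (edgeR adjusted p = 0.066). Trim28, the scaffold itself, had 2017 ± 116 in Khk KO ileum and 2425 ± 143 in WT, with -0.27 ± 0.10 (edgeR adjusted p = 0.111). Neither passed. Atf7ip, a partner of Setdb1, rose by 0.87 ± 0.24 in liver and 0.64 ± 0.14 in ileum (edgeR adjusted p = 0.0323 and 0.0199). Cbx5, which encodes the heterochromatin protein HP1 alpha, rose in ileum by 0.57 ± 0.13 (edgeR adjusted p = 0.0221). Mbd3, of the NuRD deacetylase complex, fell by 0.50 ± 0.13 in liver and 0.48 ± 0.13 in ileum on the log2 scale (edgeR adjusted p = 0.0285 and 0.0446). None of these 3 genes passed in either organ once the length trend was removed. Atf7ip then stood at -0.22 in liver and -0.11 in ileum, Cbx5 at 0.06 in ileum, and Mbd3 at 0.08 in liver and 0.0022 in ileum.

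Zinc finger genes of other name families were also mostly higher in Khk KO. Of the Zbtb genes, whose proteins pair fingers with a BTB dimerization domain, 15 of 16 were higher in liver and 16 of 18 in ileum. All 6 Klf genes, encoding Krüppel-like factors, were higher in each of the 2 organs, and edgeR called 1 of the 6 in liver and 5 of the 6 in ileum, beside 44.0% and 30.6% of the tables. With the length trend removed the Zbtb counts were 9 of 16 and 11 of 18, with medians of 0.092 and 0.108, and the Klf counts 6 of 6 and 5 of 6, with medians of 0.503 and 0.852. Of the Zkscan genes, which carry SCAN and KRAB boxes, 4 of 6 were higher in liver and 3 of 4 in ileum, and 2 of 6 and 2 of 4 with the length trend removed.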

How the data were processed

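The sources used here are the 4 organ tables deposited by the authors, each with 8 libraries. Per the submitters' processing notes, reads were aligned with HISAT2 2.0.5 to mouse build GRCm38 (mm10). The counting tool, the annotation and the test are not given in the sources used here, and per the labels' protocols both directional and non-directional chemistry are possible, so reads of antisense or overlapping genes cannot be told apart. The deposited columns hold read counts per gene, normalized counts (a signal equal to the count divided by 1 size factor per library), FPKM, a log2 fold change, unadjusted and adjusted p-values and a gene length, all made by the authors. A gene is in a deposited table only if its unadjusted p-value was under 0.05. The number of genes the authors adjusted over was 18225 for liver, 15615 for duodenum, 9881 for jejunum and 16034 for ileum, as recovered from their adjusted p-values.

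Counts were tested with edgeR 4.0.16 (R 4.3.3) by the quasi-likelihood test on Khk KO against WT, with 4 libraries per genotype, 1 fit per organ, the authors' size factors and edgeR's filter on low counts. Benjamini-Hochberg adjustment ran over the authors' number of genes, with a threshold of 0.05. Because the spread was estimated from the listed genes only, the adjusted values are approximate. The script was tested on simulated counts. A fold change is on the log2 scale, and an SE is that of the fit. Alternatives were TMM scaling, DESeq2 1.42.0 size factors and its Wald test, no filter, removal of trends on gene length or GC content (span of 0.5), a replicate block, leaving out each library, other minimum means and other cluster distances. Removal of both trends together was added after the data were seen.

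KRAB, SCAN and finger patterns were searched in translations of the longest GENCODE M21 coding sequence. Promoters came from RefSeq (GRCm38.p6). Named genes were those with up to 6 largest rises and falls per organ in the authors' table with a mean of at least 100 and no overlap, those in 3 or 4 tables or past the authors' threshold in at least 2 organs (up to 12), up to 4 per cluster, those within 2 Mb of Khk, those near the minimum mean and the Zfp36 family. Genes outside this rule are said to be so, or are listed to complete a count. The members and lists were chosen with earlier results of these data known. Replicate numbers were not used to pair libraries in the main test. The correlation of same-numbered libraries' deviations lay between -0.12 and 0.1 for liver and -0.29 and 0.24 for duodenum. It lay between 0.01 and 0.31 for jejunum and -0.19 and 0.02 for ileum. For libraries of different numbers the ranges were -0.16 to 0.12, -0.39 to 0.37, -0.37 to 0.31 and -0.1 to 0.08, in the same order. So few values cannot exclude a pairing.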

Additional observations from a re-analysis of the deposited data

Results flagged for a closer look

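In 9 of 160 groups of 4 libraries examined among named members, 1 library stood far from the other 3, and chance alone marks about 1 in 20 such groups. Liver WT replicate 1 was the highest WT library for Zfp236, at 424.7 normalized counts, and for Zfp369, at 203.6, and jejunum WT replicate 1 was the highest for Zfp524, at 455.5. Khk KO libraries that stood high were replicate 4 in jejunum for Zfp106, at 2361, replicate 4 in ileum for Zfp281, at 283.3, and replicate 1 in liver for Zfp445, at 4382. Khk KO replicate 3 in liver was low for Zfp942, at 148.7. In ileum, WT replicate 3 was high for Zfp64, at 324.4, and WT replicate 2 for Zfp787, at 635.1. Zfp395 had opposite directions in 2 organs, with log2 fold changes of 0.44 in liver and -0.39 in ileum, and the difference was not tested.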

How the results depend on the processing

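The number of members called in liver, 33, was 11 with the length trend removed, 18 with the GC trend removed, 11 with both removed, 52 by DESeq2's Wald test and 53 in the authors' deposited table, and 0 to 58 when 1 library was left out. In ileum, 29 became 13, 10 and 6 with those trends removed, 54 by DESeq2's Wald test, 8 with the replicate block and 7 to 43 when 1 library was left out. Jejunum had 0, and 1 by DESeq2's Wald test. Calls over all genes fitted moved as well. Leaving out 1 library gave 19 to 4893 in liver, in place of 2807, and 452 to 2579 in ileum, in place of 1585. With the replicate block they were 2266 in liver and 471 in ileum. The share of members higher in liver was 72.2% with the length trend and 70.9% with both trends removed. In ileum it was 77.2% with the length trend removed, 70.9% with the GC trend removed and 69.6% with both. In jejunum it was 93.3% at a minimum mean of 50 and at 100. TMM and DESeq2 size factors kept every count within 1.5 times and moved no share. The replicate block left 29 called in liver and put the log2 fold change of Khk at -4.34 in duodenum and -3.34 in jejunum, where it no longer passed. Leaving out 1 library gave -4.60 to -4.07 for Khk in duodenum and -3.58 to -3.05 in jejunum. No cause was tested. At a largest distance of 100 kb 2 clusters were left, and at 1 Mb there were 9.

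Single members whose log2 fold change turned sign with the length trend removed were in liver Zfp26 (-0.076), Zfp451 (-0.061), Zfp644 (-0.17), Zfp646 (-0.064) and Zfp771 (0.034); in jejunum Zfp106 (-0.10) and Zfp445 (-0.019); in ileum Zfp106 (-0.018), Zfp318 (-0.048), Zfp451 (-0.18), Zfp704 (-0.045), Zfp738 (-0.21) and Zfp768 (0.015). Those that turned with the GC trend removed were in liver Zfp771 (0.026); in ileum Zfp65 (-0.007), Zfp160 (-0.19), Zfp451 (-0.020), Zfp738 (-0.11), Zfp758 (-0.050), Zfp768 (0.10), Zfp771 (0.16), Zfp946 (-0.29) and Zfp950 (-0.050). Those that turned with both removed were in liver Zfp26 (-0.097), Zfp451 (-0.085), Zfp644 (-0.20), Zfp646 (-0.023) and Zfp771 (0.044); in jejunum Zfp106 (-0.11) and Zfp445 (-0.011); in ileum Zfp106 (-0.077), Zfp160 (-0.18), Zfp318 (-0.15), Zfp451 (-0.35), Zfp644 (-0.028), Zfp704 (-0.070), Zfp738 (-0.40), Zfp768 (0.15), Zfp771 (0.14) and Zfp950 (-0.19). Low counts limit members near the minimum mean of 20.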
